A study of Homo sapiens with 101 samples.

Results

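The histone genes examined were every gene whose symbol starts with H1-, H2AC, H2BC, H3C, H4C, H2AZ, H2AX, H2AJ, H3-3 or MACROH2A, and each probe set assigned to such a gene alone was kept. This gave 67 genes of 19774 with a probe set of their own, measured by 97 probe sets. No measured value entered the rule, but the rule names a rise with neocarzinostatin (NCS) and a fall with alkylators, so the members were picked with results of these data known. A probe set was tested where the mean log2 signal of at least 1 of 17 groups reached 4, and 45 probe sets of 28 genes passed. Of these, 22 probe sets of 20 genes were replication-dependent (1 H1, 5 H2A, 10 H2B, 2 H3 and 4 H4 probe sets) and 23 probe sets of 8 genes were variants. Of the 45, 25 carry the x, s or a suffix of probe sets that can bind related genes, so signal of near-identical histone genes may be mixed in them. The 4 probe sets of pseudogenes or non-coding RNA did not pass. The probe set just inside that filter was H2AJ 228213_PM_at, with a highest group mean of 4.01, and the one just outside was H2BC11 214502_PM_at, with 3.995.

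Histones are the proteins that package DNA into nucleosomes, and their genes fall into 2 classes. The replication-dependent genes, named H1, H2AC, H2BC, H3C and H4C and mostly clustered on chromosome 6, supply core and linker histones while DNA is copied in S phase, and their mRNAs normally end in a stem-loop bound by SLBP and carry no poly(A) tail. The variant genes, among them H2AZ1, H2AJ, H3-3B and MACROH2A1, mostly give ordinary polyadenylated mRNAs and are read outside S phase as well. H2AX is counted with the variants here, and how much of its RNA is polyadenylated was not measured. A labelling kit that primes from poly(A) tails, as the study's 3′ IVT kit does, therefore reads the polyadenylated fraction of replication-dependent histone RNA, which is known to be small in dividing cells.

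The samples were HT1080 cells, a human fibrosarcoma line, given 1 of 11 compounds or left as controls, on 101 Affymetrix HT HG-U133+ PM arrays. Doses were those that brought total p53 protein to 1.5-fold of its control, per the series text, and the labels give no exposure time. The control DMSO_pooled served 6 compounds, a tie inferred from the values' shared scale because the labels do not say which compounds it belongs to. These were 0.1 µM MMC (mitomycin C), 10 ng/ml NCS (neocarzinostatin), 100 µM H2O2, 2 mM ENU (ethylnitrosourea), 2 mM GAD and 200 µM tBHQ (tert-butylhydroquinone). Each of the other compounds came with a separate control group. They were 600 µM BRO, 200 µM MMS (methyl methanesulfonate, against MMS_CTL), 10 µM CUR (curcumin), 0.3 µM ETP (etoposide) and 30 µM QUE (quercetin). The labels do not spell out GAD or BRO, so these stay codes. DMSO was the solvent of the stocks. There were 6 replicates a group, and 5 in MMC and H2O2.

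Each comparison was a limma fit over all 21612 probe sets tested, a call means an adjusted p under 0.05 (Benjamini-Hochberg over all of them) and at least 1.5-fold, and values are log2 fold changes, compound over control, unless said otherwise. Counts and medians over probe sets include those under 4 in both groups compared, for which no fold is printed. Nothing says that replicates were separate cultures, so the p-values measure only the spread between these samples. These are bulk RNA samples, so fewer cells in a phase of the cell cycle and less RNA per cell cannot be told apart. The mesenchymal markers VIM, FN1, CD44, S100A4 and COL6A1 had group means above 4 throughout, COL6A2 and COL5A1 only in some groups and NT5E in none, and the 10 epithelial, blood and endothelial markers were under 4 in every group. CDKN1A and MDM2, which p53 switches on, were both called higher in 8 compounds, while 1 of them was called in MMC and 0 in tBHQ and CUR. Libraries labelled ETP replicate 2 and QUE replicate 2 stood apart from their groups in the histone signal, and results that rest on them are given with and without them. They were picked out by the values then tested, so counts and p-values without them lean toward calls and only describe these samples. The ETP and QUE controls of the same number deviated together (r of 0.19 to 0.81 over 6 pairs). Independence of the pair of control groups was therefore not shown, and ETP was not tested against QUE.

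The promoter stretches of 5 members on which the results turn are shown for their spacing of known histone promoter elements. They are the 250 bases before the annotated start, from RefSeq on GRCh38.p14, written 5′ to 3′ on the gene's strand. Capitals mark the octamer ATTTGCAT, which the factor POU2F1 binds in H2B promoters, the CCAAT box and the TATA letters TATAAA, on either strand, and none of these motifs overlap in the stretches shown. H2BC4, which encodes an H2B, lies at chr6:26123927-26124176 (minus strand), H2BC21 at chr1:149886683-149886932 (minus strand) and H2BC5 at chr6:26157871-26158120 (plus strand). H1-2, which encodes a linker histone, lies at chr6:26056471-26056720 (minus strand), and the variant linker histone gene H1-10 at chr3:129316287-129316536 (minus strand).
H2BC4: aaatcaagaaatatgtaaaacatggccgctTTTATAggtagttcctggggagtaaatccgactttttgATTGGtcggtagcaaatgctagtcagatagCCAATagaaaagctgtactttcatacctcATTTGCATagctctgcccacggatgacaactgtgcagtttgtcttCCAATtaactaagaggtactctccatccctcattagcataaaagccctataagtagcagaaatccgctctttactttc
H2BC21: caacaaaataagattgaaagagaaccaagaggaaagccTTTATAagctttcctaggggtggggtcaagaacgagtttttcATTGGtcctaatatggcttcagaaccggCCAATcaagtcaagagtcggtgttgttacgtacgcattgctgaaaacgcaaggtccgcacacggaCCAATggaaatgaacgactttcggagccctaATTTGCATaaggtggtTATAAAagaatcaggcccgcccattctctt
H2BC5: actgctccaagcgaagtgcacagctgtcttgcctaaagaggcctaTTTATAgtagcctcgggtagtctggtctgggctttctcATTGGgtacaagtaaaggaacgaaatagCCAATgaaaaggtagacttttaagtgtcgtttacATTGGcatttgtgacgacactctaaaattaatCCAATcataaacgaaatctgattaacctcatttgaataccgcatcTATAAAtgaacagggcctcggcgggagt
H1-2: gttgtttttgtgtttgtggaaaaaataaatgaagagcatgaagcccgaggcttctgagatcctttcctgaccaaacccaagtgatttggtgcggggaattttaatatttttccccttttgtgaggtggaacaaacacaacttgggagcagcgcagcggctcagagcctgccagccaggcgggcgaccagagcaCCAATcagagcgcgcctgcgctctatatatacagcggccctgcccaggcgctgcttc
H1-10: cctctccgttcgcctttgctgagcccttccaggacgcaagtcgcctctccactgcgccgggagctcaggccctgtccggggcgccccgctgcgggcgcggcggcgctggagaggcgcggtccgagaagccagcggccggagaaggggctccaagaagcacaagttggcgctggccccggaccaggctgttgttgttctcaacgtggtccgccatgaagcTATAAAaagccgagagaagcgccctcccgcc

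H2BC4 held 1 octamer, which begins 123 bases before the start, 3 CCAAT boxes and 1 TATA motif. H2BC21 held 1 octamer, 46 bases before the start, with 3 CCAAT boxes and 2 TATA motifs, and H2BC5 held 4 CCAAT boxes and 2 TATA motifs. H1-2 held 1 CCAAT box and H1-10 held 1 TATA motif. Over windows of 250 bases before to 50 after the start, RefSeq promoters were found for 26 of the 28 genes that passed, in 30 windows. The octamer was in 7 of 9 H2B windows (77.8%), 4 of 5 H2A windows (80.0%), 0 of 2 H3 windows, 0 of 3 H4 windows and 1 of 10 variant windows (10.0%), against 1.77% of all 35116 windows. CCAAT was in 83.3% and TATAAA in 60.0% of the 30 windows, against 34.6% and 11.5% of all windows. H2BC5 and H2BC12 each entered more than once, with windows shifted by only a few bases, so the H2B windows are not all separate. The windows of H2BC4 and H2AC6 face apart and overlap by 255 bases. Those of 6 other H2A and H2B pairs on chromosome 6 also face apart and overlap, by 253 to 293 bases. Such a pair therefore shares most of these letters. A match describes letters in a window and is not a measured site.

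NCS, an enediyne that breaks both DNA strands, raised H1, H2A and H2B members. Of the 22 replication-dependent probe sets, 9 of 7 genes were called higher and 1 lower, against 1.12% called higher and 0.916% called lower of all probe sets. Their median change was 0.54, against -0.23 over the 23 variant probe sets and 0.01 over all tested. The 10 H2B probe sets all had positive values, from 0.38 to 1.51, and 6 were called.

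The H2BC4 probe set 236193_PM_at had a lowest, median and highest log2 signal of 6.92, 7.24 and 7.44 in NCS, against 5.39, 5.78 and 6.06 in DMSO_pooled. Every NCS sample lay above every control sample. The change was 1.43 ± 0.12 (SE, 6 against 6, adjusted p = 0.00016 in limma), and the gene's other probe set, 214455_PM_at, had 1.51 ± 0.18. H2BC21, another H2B gene, had 6.65, 7.04 and 7.53 in NCS and 5.06, 5.88 and 6.06 in DMSO_pooled. Its groups were also apart, with a change of 1.33 ± 0.18 (adjusted p = 0.0014 in limma). H2BC5 209911_PM_x_at had 8.92, 9.14 and 9.71 in NCS and 7.97, 8.12 and 8.51 in DMSO_pooled, again with no overlap and a change of 1.05 ± 0.13, while its probe set 222067_PM_x_at gave 0.81 ± 0.11.

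H2AC6, an H2A gene that shares its promoter stretch with H2BC4, had 9.16, 9.27 and 9.77 in NCS, against 7.97, 8.32 and 8.76 in DMSO_pooled. These groups did not overlap, and the change was 1.04 ± 0.14 (adjusted p = 0.0014 in limma). H2AC11, paired in the same way with H2BC11, had 4.81, 5.11 and 5.59 in NCS and 3.75, 4.34 and 4.48 in DMSO_pooled, with no overlap and a change of 0.86 ± 0.14. H1-2 had 8.91, 9.20 and 9.89 in NCS and 8.43, 8.60 and 8.97 in DMSO_pooled, where 5 of 6 NCS samples lay above every control sample. Its change was 0.62 ± 0.15, and NCS replicate 3 was far above the rest of its group. The last called gene, H2BC6, had 0.63 ± 0.12.

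Of the 4 H4 probe sets 1 was lower and 0 higher. H4C3, an H4 gene, had 11.15, 11.48 and 11.92 in NCS, against 11.98, 12.24 and 12.47 in DMSO_pooled. Every NCS sample lay below every control sample, and the change was -0.73 ± 0.14 (adjusted p = 0.011 in limma). H4C11 had -0.29 and was not called, and the probe sets of H4C2 and H4C9 were under 4 in NCS and DMSO_pooled. Of the H3 genes, H3C10 had 0.73 ± 0.31 (adjusted p = 0.19 in limma) and was called with the replicate number as a block (adjusted p = 0.0045), and H3C8 was under 4 in both groups.

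**Figure D1:**
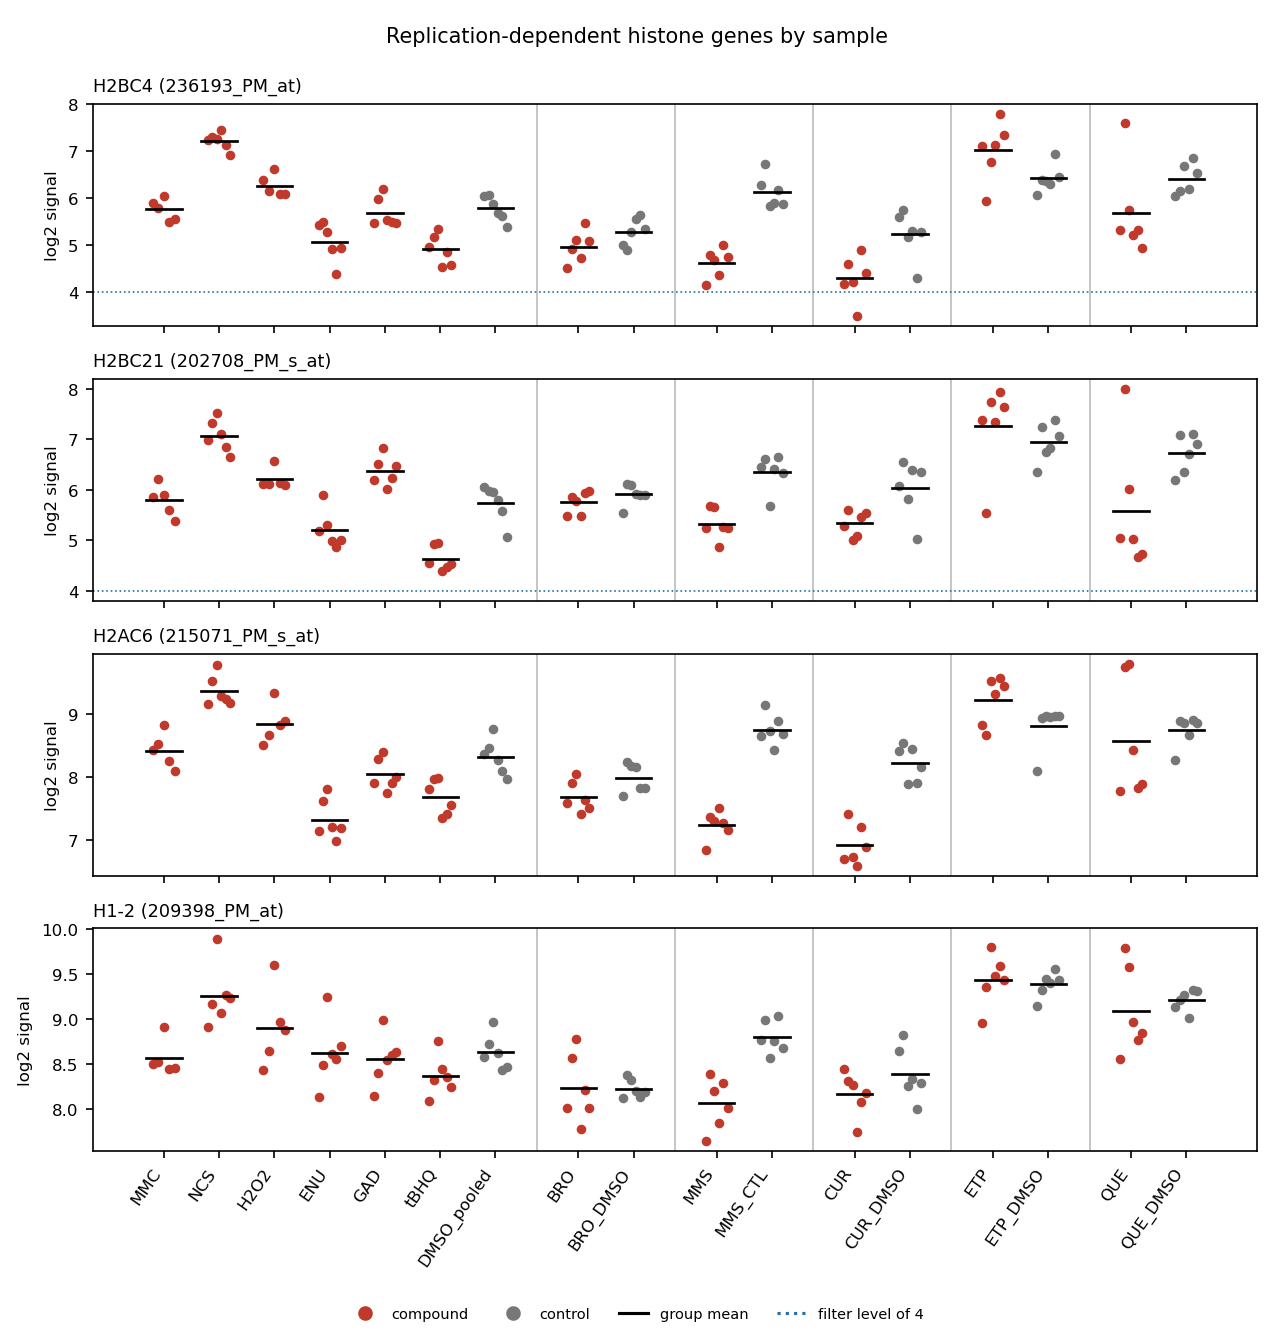
Log2 signal (vertical axis) of 4 replication-dependent histone probe sets in each sample, with compounds in red left of their controls in grey, a black line at each group mean and array sets parted by grey lines. The NCS samples of H2BC4, H2BC21 and H2AC6 lie above every DMSO_pooled sample, the MMS samples of H2BC4, H2AC6 and H1-2 lie below every MMS_CTL sample, and 1 ETP and 1 QUE sample stand apart in H2BC21.

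H2O2, an oxidant, had 0 of 45 histone probe sets called in limma, against 0.523% higher and 0.134% lower of all probe sets, with 6 replication-dependent probe sets higher and 2 lower at an unadjusted p under 0.05. These are 27.3% and 9.09% of the 22, against 8.13% and 6.06% of all probe sets at that p. The median was 0.25 over the replication-dependent probe sets and -0.18 over the variants. H2BC4 214455_PM_at had 6.63, 6.50, 7.08, 6.52 and 6.06 in the 5 H2O2 samples, against a lowest, median and highest of 5.22, 5.89 and 6.22 in DMSO_pooled, and 4 of 5 lay above every control sample. Its change was 0.76 ± 0.21 (adjusted p = 0.10 in limma). With the replicate number as a block, H2BC4 (0.69, adjusted p = 0.013 in limma) and H2BC5 209911_PM_x_at (0.64, adjusted p = 0.023) were called, which made 2 higher. Without H2O2 replicate 1, 1 probe set was called higher and 1 lower.

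MMC, a crosslinker, had 0 of 45 called in limma, against 0.0972% higher and 0% lower of all, with 0 higher and 6 lower at an unadjusted p under 0.05. These are 0% and 13.3% of the 45, against 4.13% and 2.74% of all probe sets at that p. Its replication-dependent median was -0.02. H1-10 204805_PM_s_at had 7.25, 7.27, 7.25, 7.34 and 7.47 in the 5 MMC samples, against 7.57, 7.69 and 7.97 (lowest, median, highest) in DMSO_pooled, so the groups were apart, and its change was -0.42 ± 0.09 (adjusted p = 0.15 in limma). With the replicate block the gene's dimmer probe set 231004_PM_s_at was called lower (adjusted p = 0.029 in limma), but its means in both groups were under 4, so no fold is given.

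ENU, which adds ethyl groups to DNA, lowered H2A and H2B members. Of the 22 replication-dependent probe sets 0 were called higher and 7 of 6 genes lower, against 4.67% higher and 5.59% lower of all probe sets, and 21 of the 22 had negative values. The median was -0.48, against 0.02 over the variants, of which 0 were called. The calls were on H2AC6 and on 6 H2B probe sets, of H2BC4, H2BC5, H2BC6, H2BC12 and H2BC12L.

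H2AC6 had 6.98, 7.19 and 7.81 in ENU, against 7.97, 8.32 and 8.76 in DMSO_pooled. Every ENU sample lay below every control sample, and the change was -1.0 ± 0.16 (adjusted p = 0.00041 in limma). H2BC5 209911_PM_x_at had 7.18, 7.35 and 7.77 in ENU and 7.97, 8.12 and 8.51 in DMSO_pooled, with no overlap and a change of -0.74 ± 0.12. H2BC4 236193_PM_at had 4.39, 5.10 and 5.49 in ENU and 5.39, 5.78 and 6.06 in DMSO_pooled. Here 4 of 6 ENU samples lay below every control sample, and the change was -0.71 ± 0.18. H1-2 had -0.01, H4C3 -0.24 and H2BC21 -0.53 ± 0.19, and none of these was called.

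MMS, which adds methyl groups, lowered H1, H2A and H2B members. Of the 22 replication-dependent probe sets 14 of 12 genes were called lower and 0 higher, against 5.85% lower and 4.34% higher of all. The median was -0.70, against 0.04 over the variants, of which 0 were called, and 0.07 over all tested. The calls took in H1-2, 4 of 5 H2A and 9 of 10 H2B probe sets, and 0 of 4 H4 probe sets, of which H4C3 had 0.11 and H4C11 -0.16. The difference between 3′ and 5′ ACTB probe sets, a measure of RNA integrity and priming, was 0.76 to 1.11 in MMS and 0.61 to 0.84 in MMS_CTL, and its part in the MMS values was not tested.

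H2AC6 had 6.84, 7.28 and 7.50 in MMS, against 8.42, 8.70 and 9.15 in MMS_CTL. The groups were apart by more than the range of either, and the change was -1.52 ± 0.13 (adjusted p = 5e-06 in limma). H2BC4 236193_PM_at had 4.14, 4.71 and 4.99 in MMS and 5.82, 6.03 and 6.73 in MMS_CTL, with no overlap and a change of -1.51 ± 0.17, beside -1.38 ± 0.24 for its other probe set. H2BC21 had 4.87, 5.25 and 5.68 in MMS and 5.68, 6.44 and 6.66 in MMS_CTL, where the highest MMS sample lay only just below the lowest control sample, replicate 3, and the change was -1.04 ± 0.17. H2BC5 209911_PM_x_at had 7.14, 7.54 and 7.72 in MMS and 8.19, 8.54 and 8.74 in MMS_CTL, with no overlap and a change of -0.99 ± 0.11. H1-2 had 7.65, 8.10 and 8.39 in MMS and 8.57, 8.76 and 9.03 in MMS_CTL, also apart, with -0.73 ± 0.13 (adjusted p = 0.0012 in limma). H2AC11 had 2.95, 3.04 and 3.44 in MMS and 3.82, 4.13 and 4.53 in MMS_CTL. Its MMS mean is under 4 and so not well above background, and the measured change of -0.98 amounts to a fall of at least 0.11 against that level.

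All 9 probe sets called higher in NCS were called lower in MMS, which is 100% of the 9 and 64.3% of the 14, and these comparisons share no samples. Of the probe sets called lower in ENU, all 7 were also called lower in MMS, which is 100% of the 7 and 50.0% of the 14. Of all probe sets, 5.85% were lower in MMS, but the same overlaps over all probe sets were not counted. The 9 are of 7 genes and the 7 of 6 genes, since some genes have more than 1 probe set. The change in MMS was set against the change in ENU in 1 model. In it 3 members were called lower and 0 higher, against 3.59% of all probe sets lower and 3.71% higher. H1-2 (-0.73 ± 0.21, adjusted p = 0.022 in limma) and H2BC4 236193_PM_at (-0.80 ± 0.26, adjusted p = 0.044) had a lower change in MMS than in ENU. The call on H2AC11 rests on an MMS mean under 4, and with that mean held at 4 its MMS change of -0.11 stands beside an ENU change of -0.09. For H2AC6 the difference was -0.52 and was not called. The doses differ, 200 µM for MMS and 2 mM for ENU, and so do the controls.

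NCS and ENU share a scale of values, from which their array set was inferred, and were compared with each other without a control. Of the 22 replication-dependent probe sets, 15 of 13 genes were higher in NCS and 0 lower, against 7.3% higher and 5.58% lower of all, and the median difference, NCS minus ENU, was 1.00 against -0.02 over all tested. All 10 H2B probe sets were among them, from 0.89 (H2BC10) to 2.36 (H2BC4 214455_PM_at). For H2AC6 the difference was 2.04 (95% interval 1.72 to 2.36), and every NCS sample lay above every ENU sample. H3C10, with 4.73 in NCS and 3.48 in ENU, was at least 0.73 higher against the level of 4. Of the 4 H4 probe sets 0 were called, with H4C3 at -0.50 (under 1.5-fold) and H4C11 at 0.12. Of the variants, H1-10 204805_PM_s_at (-0.86, interval -1.08 to -0.65) and H2AX 205436_PM_s_at (-0.90, interval -1.39 to -0.42) were lower in NCS.

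**Figure D2:**
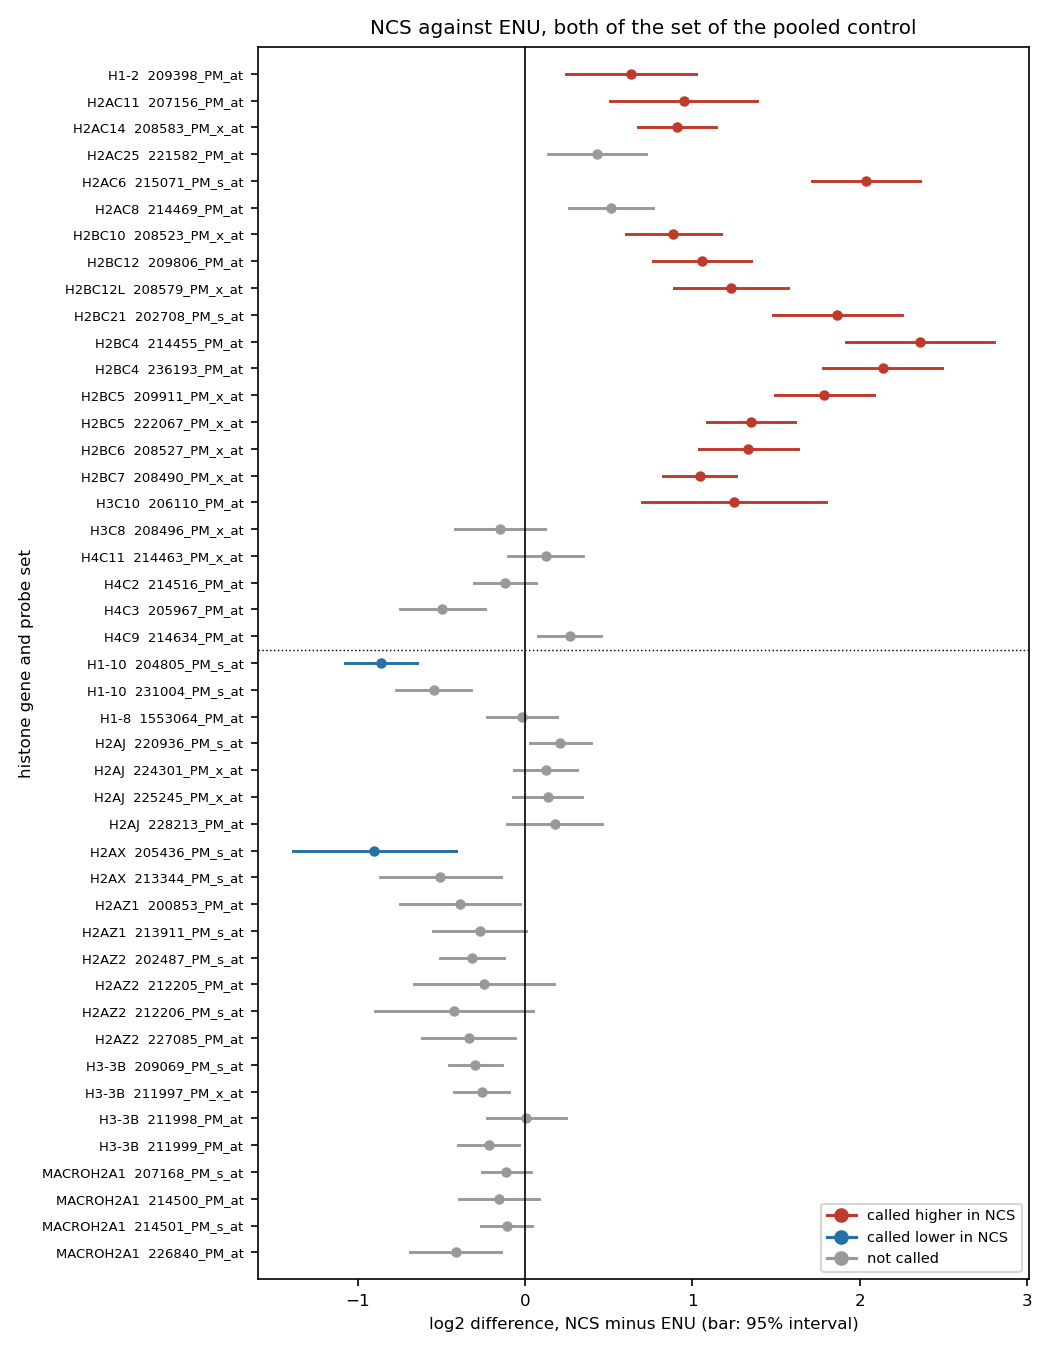
Log2 difference NCS minus ENU (horizontal axis) with its 95% interval for the 45 histone probe sets, replication-dependent ones above the dotted line and variants below it. The 10 H2B probe sets lie between 0.89 and 2.36, and H4C3 lies at -0.50. Probe sets under 4 in both groups are drawn as well.

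ETP, which traps topoisomerase on broken DNA, gave no called rise with all 6 samples. Of the replication-dependent probe sets 0 were higher and 2 lower, against 1.54% higher and 0.652% lower of all, with a median of 0.09. H2BC4 236193_PM_at had 5.93, 7.11 and 7.79 in ETP, against 6.06, 6.38 and 6.93 in ETP_DMSO, where 4 ETP samples lay above and 1 lay below every control sample. That 1 was replicate 2, and the change was 0.59 ± 0.25 (adjusted p = 0.23 in limma). H2BC21 had 5.54, 7.52 and 7.95 in ETP and 6.35, 6.96 and 7.39 in ETP_DMSO, with replicate 2 again the lowest.

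Without ETP replicate 2, picked out by these same values, 5 replication-dependent probe sets were called higher and 2 lower, against 2.04% and 1.3% of all. They were H2AC11 (1.27 ± 0.18, adjusted p = 0.0012 in limma), both of H2BC4 (0.82 ± 0.17 and 0.81 ± 0.18), H2BC5 209911_PM_x_at (0.72 ± 0.20) and H2BC21 (0.67 ± 0.18). That library had the highest ACTB 3′ minus 5′ difference of its group and control, 3.19 against 1.72 to 2.50 in the other ETP samples and 1.60 to 2.43 in ETP_DMSO. The part of RNA integrity in the result was not tested.

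The H4 falls in ETP did not rest on that library. H4C3 had 11.56, 11.66 and 11.77 in ETP, against 12.27, 12.46 and 12.49 in ETP_DMSO, with no overlap and a change of -0.75 ± 0.07 (adjusted p = 1e-04 in limma), and -0.76 ± 0.07 without the library (adjusted p = 8.2e-05 in limma). H4C11 had 5.10, 5.21 and 5.33 in ETP and 5.57, 5.99 and 6.26 in ETP_DMSO, also apart, with -0.76 ± 0.12. The ETP change was set against the NCS change in 1 model over 4 groups. It called 0 of 45 histone probe sets and 0 of 21612 in all, 0% in each direction in limma, with 0 replication-dependent probe sets higher and 12 lower, and 336 higher and 299 lower of all, at an unadjusted p under 0.05. The median difference over the replication-dependent probe sets, ETP minus NCS, was -0.41, and H4C3 had -0.02. These values include ETP replicate 2, and the median difference without it is not given. Against ETP_DMSO the ETP median was 0.09 with that library and 0.16 without it. Leaving out any 1 sample, the model still called 0 histone probe sets.

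tBHQ, a phenolic antioxidant, lowered replication-dependent and variant members. Of the 22, 7 of 7 genes were lower and 0 higher, and of the 23 variants 4 were lower, against 4.39% lower and 5.45% higher of all probe sets. The medians were -0.28 and -0.30. H2BC21 had 4.38, 4.54 and 4.94 in tBHQ, against 5.06, 5.88 and 6.06 in DMSO_pooled, with no overlap and a change of -1.11 ± 0.16 (adjusted p = 0.00027 in limma). H2BC4 236193_PM_at had 4.54, 4.90 and 5.34 in tBHQ and 5.39, 5.78 and 6.06 in DMSO_pooled, also apart, with -0.87 ± 0.16.

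Within the H2B genes the tBHQ values spread from -1.11 (H2BC21) to 0.41 (H2BC7), and H2BC5 209911_PM_x_at stood at -0.02, so the H2B values had both signs. H2AC25, an H2A gene on chromosome 1 rather than 6, had 6.98, 7.84 and 8.02 in tBHQ, against 8.16, 8.29 and 8.63 in DMSO_pooled, with no overlap and -0.65 ± 0.16. H4C3 (-0.66 ± 0.11) and H4C11 (-0.66 ± 0.10) were lower with no overlap. H2AC6 had -0.65 ± 0.15, and H2AC11, with its tBHQ mean under 4, fell by at least 0.26.

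In CUR an H2A and an H2B probe set of the replication-dependent genes were called lower, both with an s or x suffix, and with such probe sets left out 0 histone probe sets were called lower. Of the 22, 2 were lower and 0 higher, against 0.648% lower and 1.15% higher of all, and the median was -0.27 against 0.06 over all tested. H2AC6 had 6.59, 6.80 and 7.41 in CUR, against 7.88, 8.28 and 8.54 in CUR_DMSO, with no overlap and a change of -1.31 ± 0.16 (adjusted p = 0.0017 in limma). H2BC5 209911_PM_x_at had 7.11, 7.30 and 7.76 in CUR and 7.71, 8.05 and 8.34 in CUR_DMSO, where 5 of 6 CUR samples lay below every control sample, with -0.71 ± 0.13. H2BC4 236193_PM_at had -0.93 and was called only with the replicate block (adjusted p = 0.038 in limma), as was H2BC21 (-0.70, adjusted p = 0.037). Without CUR_DMSO replicate 5, 7 histone probe sets were called lower in place of 4.

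In QUE the replication-dependent values rested on 1 library. With all 6 samples 1 of 22 was lower, H4C11, and 0 higher, against 5.93% lower and 7.02% higher of all, and the median was -0.14. H2BC21 had 4.67, 5.03 and 8.01 in QUE, against 6.20, 6.81 and 7.10 in QUE_DMSO. The highest value was replicate 2, and 5 of the QUE samples lay below every control sample. Without replicate 2, picked out by these same values, 7 replication-dependent probe sets were lower and 0 higher, against 8.81% lower and 9.8% higher of all. H2BC21 then had -1.63 ± 0.24 (adjusted p = 2e-04 in limma) and H2BC4 -1.33 ± 0.22 and -1.10 ± 0.17. The ACTB 3′ minus 5′ difference of replicate 2, 1.52, was the lowest of its group, where the others had 2.03 to 2.30 and QUE_DMSO had 1.39 to 1.84. The part of this difference in the result was not tested. The replication-dependent median of QUE replicate 2, 7.612, lay among the other ETP samples, 7.091 to 7.830. That of ETP replicate 2, 5.978, lay among the other QUE samples, 5.554 to 6.192, though these sets look normalized apart. In the ACTB difference QUE replicate 2 lay below the other ETP samples, 1.72 to 2.50. ETP replicate 2, with 3.19, lay above the other QUE samples. Whether the labels of these libraries were exchanged was not tested.

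In GAD and BRO the replication-dependent members had 1 call in all. GAD had 1 of 22 higher and 0 lower, against 12.6% higher and 14.1% lower of all probe sets. That 1 was H2BC21, with 6.01, 6.36 and 6.83 in GAD, against 5.06, 5.88 and 6.06 in DMSO_pooled, where 5 of 6 GAD samples lay above every control sample, and a change of 0.64 ± 0.17 (adjusted p = 0.0056 in limma). The ACTB 3′ minus 5′ difference was 1.17 to 1.64 in GAD and 0.78 to 1.05 in DMSO_pooled, with no overlap, and its part in the GAD values, those of H2AJ and H3-3B included, was not tested. Without GAD replicate 3 or DMSO_pooled replicate 6, only 1 of the 2 histone rises in GAD was called. BRO had 0 of 45 called in either direction in limma, against 2.86% higher and 3.96% lower of all, with 7 higher and 8 lower at an unadjusted p under 0.05. These are 15.6% and 17.8% of the 45, against 19.4% and 19.2% of all probe sets at that p. H2AC6 in BRO had -0.30 and H2BC7 0.43, and neither was called.

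**Figure D3:**
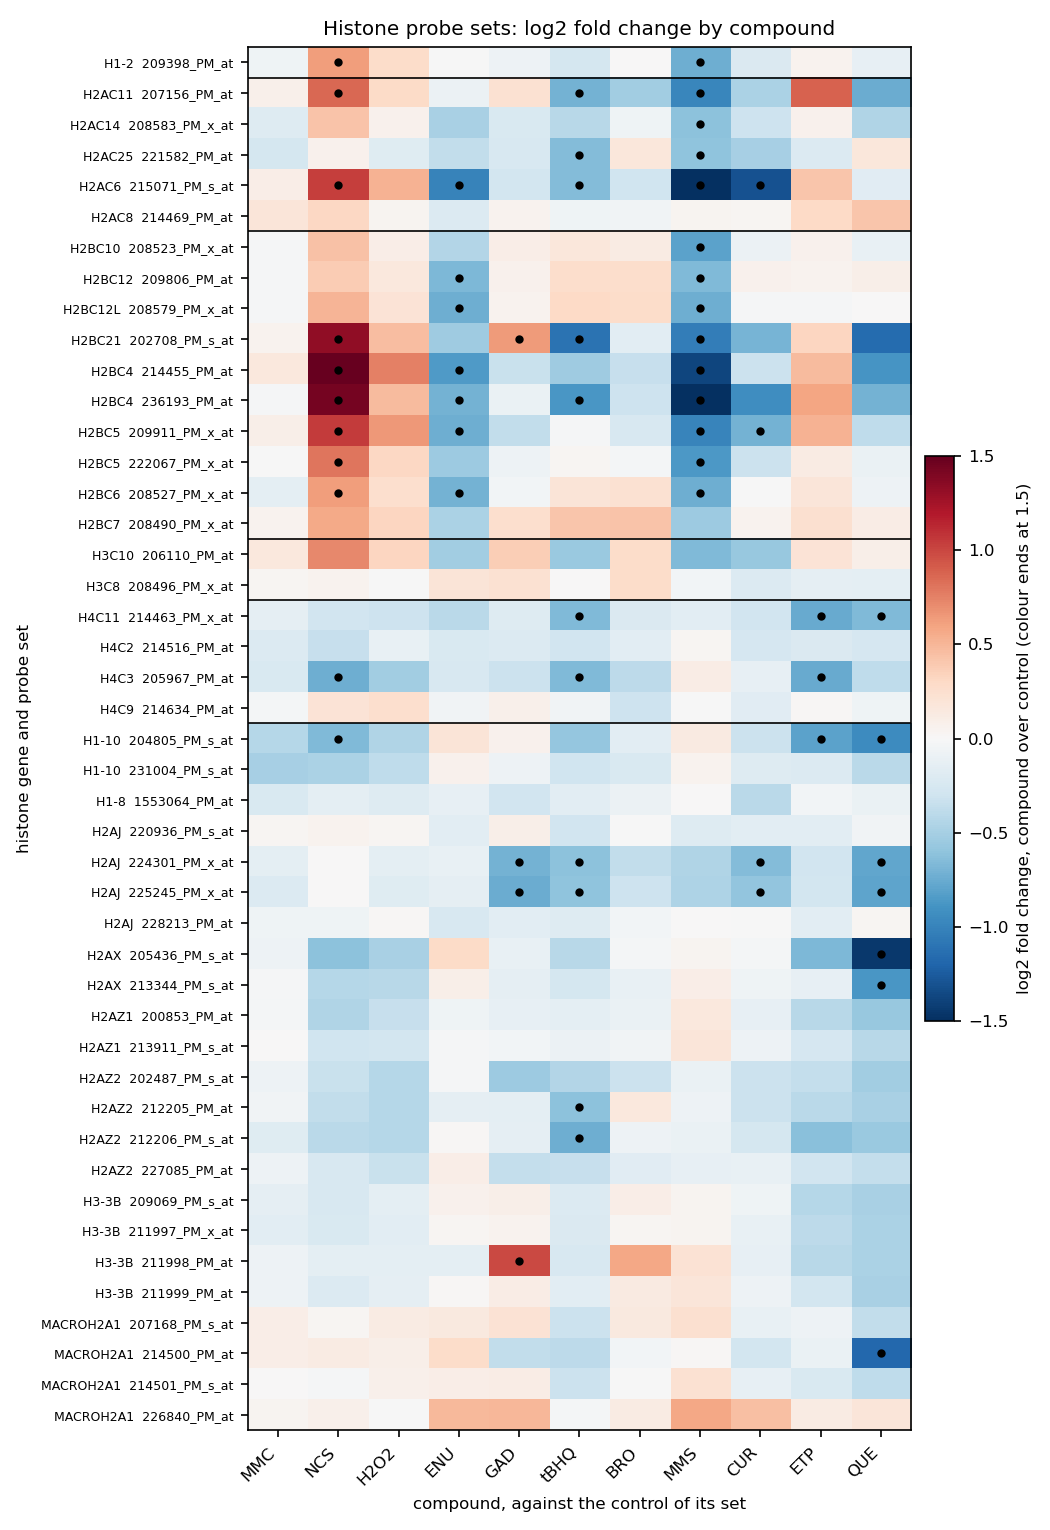
Log2 fold change (colour, compound over control) of the 45 histone probe sets that passed the filter (rows, grouped as H1, H2A, H2B, H3, H4 and variants from top to bottom) in the 11 compounds (columns), with a black dot where a change was called. NCS is red and ENU and MMS are blue over most H2A and H2B rows, and H4C3 and H4C11 are blue in NCS. Rows under 4 in both groups of a comparison are drawn as well.

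Among the variant genes QUE had the most calls, with 6 of 23 lower and 0 higher, against 5.93% lower and 7.02% higher of all. The variant median was -0.48, against 0.01 over all tested, and 21 of 23 values were negative. H2AX, whose protein is phosphorylated beside double-strand breaks, had 7.36, 8.62 and 8.97 in QUE at 205436_PM_s_at, against 9.38, 9.95 and 10.42 in QUE_DMSO. The groups did not overlap, and the change was -1.45 ± 0.26 (adjusted p = 0.0033 in limma). Its second probe set, 213344_PM_s_at, had a QUE mean under 4, and fell by at least 0.42. In NCS the H2AX value was -0.62 ± 0.25 (adjusted p = 0.17 in limma), and it was called with the replicate block (adjusted p = 0.00083).

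H1-10 204805_PM_s_at was lower in 3 compounds. It had 7.39, 7.74 and 8.09 in QUE, against 8.41, 8.72 and 9.02 in QUE_DMSO, with no overlap and -0.95 ± 0.14 (adjusted p = 0.0015 in limma). It had 7.67, 7.96 and 8.60 in ETP and 8.68, 8.78 and 9.18 in ETP_DMSO, also apart, with -0.81 ± 0.17. In NCS it had 6.86, 7.03 and 7.35, against 7.57, 7.69 and 7.97 in DMSO_pooled, again apart, with -0.66 ± 0.11. In ENU and MMS it had 0.20 and 0.13 and was not called.

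H2AJ, an H2A variant known to build up in senescent fibroblasts, was lower in 4 compounds at both of its bright probe sets. At 225245_PM_x_at it had 7.61, 7.86 and 8.08 in GAD and 7.74, 8.01 and 8.15 in tBHQ, against 8.34, 8.55 and 8.91 in DMSO_pooled. Both compounds lay wholly below the control, with -0.74 ± 0.11 in GAD and -0.61 ± 0.10 in tBHQ. It had 7.30, 7.58 and 8.04 in CUR and 8.08, 8.17 and 8.40 in CUR_DMSO, with no overlap and -0.59 ± 0.12 (adjusted p = 0.025 in limma). In QUE it had 7.57, 7.84 and 8.79, against 8.51, 8.80 and 8.94 in QUE_DMSO, with -0.79 ± 0.17. All QUE samples but replicate 2 lay below every control sample, and without replicate 2 the H2AJ value was -0.96 ± 0.09. In NCS its value was 0.00 and in ENU -0.13. The 224301_PM_x_at values were -0.71, -0.61, -0.65 and -0.78 in GAD, tBHQ, CUR and QUE.

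The remaining variant calls were on single probe sets or on H2A.Z. H2AZ2, which encodes an H2A.Z protein, was lower in tBHQ at 2 of its 4 probe sets (-0.73 ± 0.24 and -0.62 ± 0.20), each with 4 of 6 tBHQ samples below every control sample. H3-3B, which encodes the replication-independent H3.3, had 9.46, 9.61 and 9.92 in GAD at 211998_PM_at, against 8.44, 8.60 and 9.03 in DMSO_pooled, with a change of 0.99 ± 0.11, while its other 3 probe sets had 0.05 to 0.11 and were not called. MACROH2A1, whose protein carries a macro domain, had 6.68, 7.34 and 9.39 in QUE at 214500_PM_at, against 8.49, 8.84 and 8.98 in QUE_DMSO, with -1.18 ± 0.36, and its other probe sets had -0.38, -0.38 and 0.18. Its highest QUE sample was replicate 2, and without it the value was -1.53 ± 0.20.

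**Figure D4:**
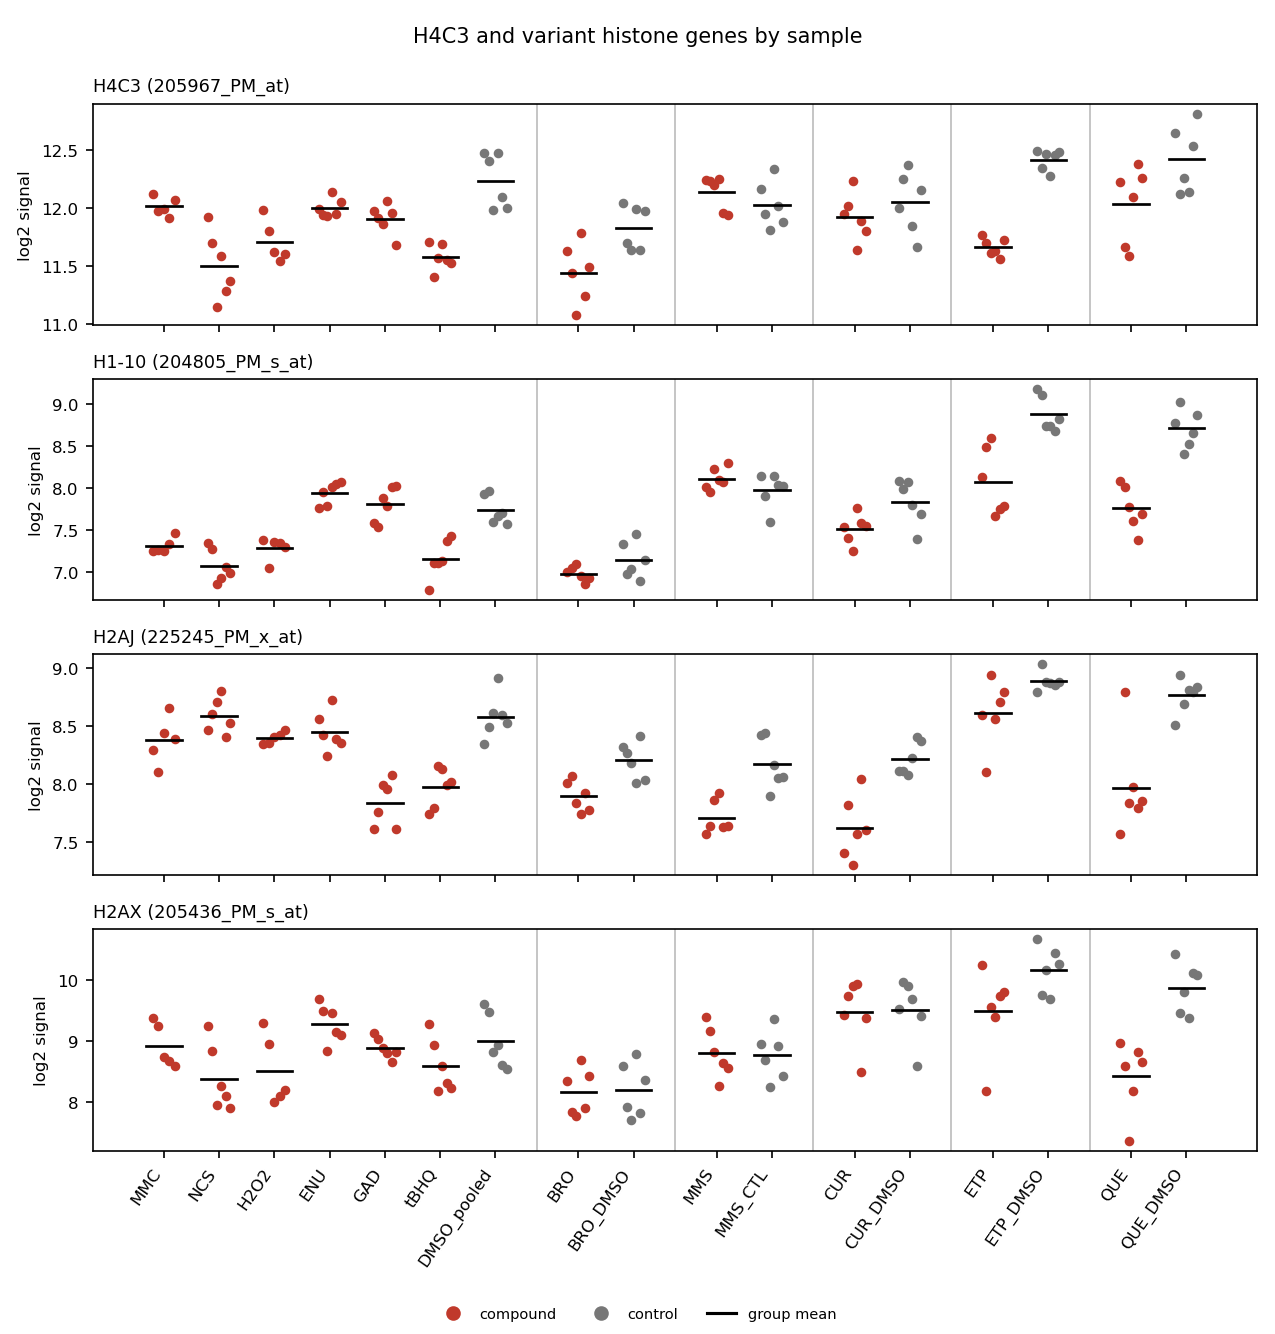
Log2 signal (vertical axis) of H4C3 and of the variant genes H1-10, H2AJ and H2AX in each sample, with compounds in red left of their controls in grey, a black line at each group mean and array sets parted by grey lines. The NCS, tBHQ and ETP samples of H4C3 lie below every sample of their controls, and the QUE samples of H1-10 and H2AX lie below every QUE_DMSO sample.

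In NCS, MMS, H2O2 and ETP the S phase genes and the 22 replication-dependent probe sets had medians of opposite sign. The median over all 45 histone probe sets was 0.03 in NCS and -0.10 in MMS. Of a list of 24 genes read in S phase, SLBP among them, 23 were tested, each at its brightest probe set. In NCS 10 were lower and 0 higher, against 0.916% lower and 1.12% higher of all probe sets, with a median of -0.79. The calls were led by CDC45 (-1.44 ± 0.31), MCM6 (-1.37 ± 0.28) and MCM2 (-1.24 ± 0.26), which are parts of the replicative helicase. The replication-dependent median was 0.54 and the variant median -0.23. In MMS 8 were higher and 0 lower, against 4.34% higher and 5.85% lower of all, with a median of 0.35. Among them were GINS1 (0.98 ± 0.16), CDT1, a licensing factor (0.94 ± 0.09), RFC3, a clamp loader subunit (0.78 ± 0.17), and RRM1, a subunit of ribonucleotide reductase (0.76 ± 0.10). The replication-dependent median in MMS was -0.70 and the variant median 0.04. In ENU 7 were lower and 1, PCNA, higher, against 5.59% and 4.67% of all, with a median of -0.24. In tBHQ 13 were lower, against 4.39% of all, with -0.69. In ETP 8 were lower and 1 higher, against 0.652% and 1.54% of all, with -0.45 beside a replication-dependent median of 0.09. In H2O2 4 were lower and 0 higher, against 0.134% and 0.523% of all, with -0.56 beside 0.25.

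The MMS change minus the ENU change was called higher for 12 of the 23 S phase genes and lower for 0, with a median of 0.75. Of all probe sets 3.71% were higher and 3.59% lower in that model, in which 3 histone probe sets were lower. NCS minus ENU was lower for 7 and higher for 0, against 5.58% and 7.3% of all, with -0.49. The part of S phase in the histone values was not tested.

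**Figure D5:**
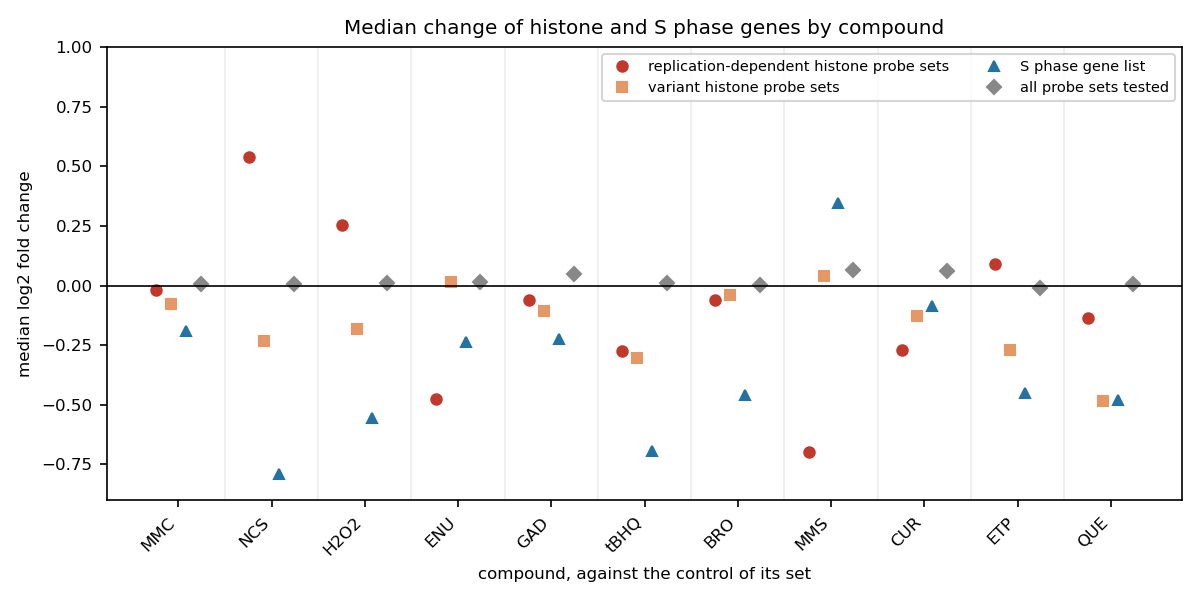
Median log2 fold change (vertical axis, compound over control) of the 22 replication-dependent probe sets, the 23 variant probe sets, the 23 S phase genes tested and all 21612 probe sets, for each of the 11 compounds. In NCS the replication-dependent median (0.54) lies above and the S phase median (-0.79) below 0, and in MMS they stand at -0.70 and 0.35.

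The genes that turn histone genes on or process their mRNAs were read from a fixed list. Of its 25 genes 24 were tested, and 0 were called in NCS, ENU, MMC, H2O2, BRO, CUR and ETP in limma. In these compounds 0.0972% (MMC) to 4.67% (ENU) of all probe sets were higher and 0% (MMC) to 5.59% (ENU) lower. SLBP, which binds the stem-loop, had -0.39 ± 0.14 in NCS (adjusted p = 0.12 in limma), -0.37 ± 0.14 in ENU and 0.12 ± 0.09 in MMS, and NPAT, the coactivator of histone genes at the nuclear bodies where they are read, had -0.35, 0.10 and 0.43. In MMS CASP8AP2 (0.66 ± 0.16), which works at those bodies, and CDK2 (0.66 ± 0.12), which phosphorylates NPAT, were higher, against 4.34% of all probe sets. In GAD, where 12.6% of all probe sets were higher, 5 of the 24 were, CCNE1, CCNE2, CSTF2T, HINFP and ZNF473. ZNF473 (1.01 ± 0.10), which acts in cleavage of histone mRNA ends, and HINFP (0.90 ± 0.08), which binds H4 promoters, rose in GAD, where H4C3 had -0.33 and H4C11 -0.20 and neither was called. In QUE 3 were higher and 1 lower, against 7.02% and 5.93% of all, and in tBHQ 2 were higher and 1 lower, against 5.45% and 4.39% of all.

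Of 23 histone chaperones, 22 were tested, and 0 to 2 were called in any compound. Of all probe sets, 0.0972% (MMC) to 12.6% (GAD) were higher and 0% (MMC) to 14.1% (GAD) lower. MCM2, which also carries histones at the fork and stands in both lists, was the only one lower in NCS, H2O2, ENU, ETP, tBHQ and BRO. ASF1A, a chaperone of H3 and H4, was higher in BRO (1.09 ± 0.09), tBHQ (1.00 ± 0.18) and GAD (0.61 ± 0.16), and ANP32E, which removes H2A.Z, was lower in QUE (-1.44 ± 0.23). CHAF1A, of the complex that lays down histones behind the fork, was higher in MMS (0.70 ± 0.17). Of 18 histone genes outside the symbol rule only CENPA, the histone of the centromere, was tested, and it was lower in GAD (-1.73), QUE (-1.21) and NCS (-0.94).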

How the data were processed

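The authors deposited log2 probe-set values of 101 arrays, made with GCRMA in Partek per the submitters' processing notes, with no versions given. Their scale differed between 6 sets of arrays, which look normalized apart, so each compound was tested against the control of its own set. Array noise and the number of samples limit the precision. Of 54715 probe sets, 40914 name 1 gene. The 21612 of these, of 11516 genes, with a mean of at least 4 in 1 or more of 17 groups were tested in limma 3.58.1 under R 4.3.3, per comparison, with Benjamini-Hochberg adjustment over all of them. The arrays 2 and 2-2 of ETP_DMSO, whose difference had an SD of 0.179 against 0.234 for the next closest pair, were averaged, which left 100 samples. Members and lists were chosen with earlier results of these data known. Sample values were given for members picked by their number of calls and largest change within each class, and also for H2BC4 214455_PM_at in H2O2, H2AX, H3-3B and MACROH2A1, chosen after their values were seen. Same-numbered samples deviated together (every r above 0.1) for 9 compounds, with a lowest r of 0.13 in QUE, but not for MMS or ETP, and the pairing rests on these correlations alone. Motifs were counted with Python 3.11.15. The alternatives were other filters, normalizations, probe-set choices and fits, the replicate block, and leaving out each sample.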

Additional observations from a re-analysis of the deposited data

Results flagged for a closer look

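For the named probe sets and the median of the replication-dependent probe sets, 221 groups of 5 or 6 samples were examined. Of these, 19 held a sample far from the others, while chance gives about 1 in 20. QUE replicate 2 was the highest of its group for H2AC11 (5.77), H2BC4 236193_PM_at (7.60), H2AJ at 224301_PM_x_at (8.88) and 225245_PM_x_at (8.79), and the median of the replication-dependent probe sets (7.612). ETP replicate 2 was the lowest of its group for H2AC11 (3.51) and H2BC21 (5.54). For H1-2, MMC replicate 3 (8.91) and NCS replicate 3 (9.89) were the highest. For H2BC21, H2O2 replicate 3 (6.57) was the highest and MMS_CTL replicate 3 (5.68) the lowest. For H2BC5 209911_PM_x_at, DMSO_pooled replicate 3 (8.51) was the highest, and ETP_DMSO replicate 1 (8.11) and QUE_DMSO replicate 1 (8.29) were the lowest of their groups. H2AC6 was lowest in ETP_DMSO replicate 1 (8.10), H2AC11 in DMSO_pooled replicate 6 (3.75), H4C11 in CUR replicate 5 (3.71) and H1-10 204805_PM_s_at in H2O2 replicate 2 (7.05). The replication-dependent median was lowest in BRO_DMSO replicate 1 (5.492).

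The MMS change minus the ENU change passed its own test for H1-2 (-0.726), H2AC11 (-0.885) and H2BC4 236193_PM_at (-0.798). For H2AC11 the MMS mean was under 4, and held at 4 its MMS change was -0.11, beside -0.09 in ENU.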

How the results depend on the processing

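No result changed sign while called. All 28 counts of called histone probe sets stayed within 1.5 times of their values with no filter, a filter at 6, quantile normalization, and limma's trend and robust options. With the replicate block, MMC had 1 lower, H2O2 2 higher and ETP, whose numbers do not pair the samples, 5 lower. With 1 probe set per gene, GAD had 1 higher and 1 lower and QUE 4 lower. With the mean of each gene's probe sets, NCS had 1 lower, GAD 1 higher and 0 lower, tBHQ 6 lower, CUR 1 lower, QUE 3 lower and NCS minus ENU 1 lower. Without the x, s and a probe sets, which can bind related genes, NCS had 4 higher and 1 lower, ENU 3 lower, GAD 1 higher and 0 lower, tBHQ 5 lower, MMS 6 lower, CUR 0 lower, ETP 1 lower, QUE 1 lower, and NCS minus ENU 6 higher and 0 lower. These 3 choices leave fewer probe sets to call. With equal medians, BRO and MMS had 1 higher each. In 1 fit of all groups, ETP had 1 higher, QUE 11 lower and MMS minus ENU 1 lower, and the cause was not tested.

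Leaving out 1 sample gave 7 to 10 higher and 2 to 3 lower in NCS, 6 to 10 lower in ENU, 12 to 16 lower and 0 to 1 higher in MMS, 8 to 14 lower in tBHQ, 3 to 7 lower in CUR, 0 to 5 higher and 2 to 4 lower in ETP, 5 to 13 lower in QUE, 1 to 2 higher and 2 to 3 lower in GAD, and 0 to 1 in each direction in H2O2 and BRO. NCS minus ENU had 14 to 15 higher and 2 to 3 lower, and MMS minus ENU 2 to 3 lower. BRO had 1 higher without BRO replicate 1, 4 or 6 or BRO_DMSO replicate 4 or 6, and 1 lower without BRO replicate 4 or BRO_DMSO replicate 5. MMS had 1 higher without MMS replicate 4 or 6 or MMS_CTL replicate 4, 5 or 6. The arrays read mainly polyadenylated RNA, 25 of the 45 probe sets can bind related genes, and values under 4 carry little order.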

Other observations

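Histone probe sets that several genes share were left out of the counts above and are given as values. The pair assigned to H2AC19 and H2AC18 together moved with the other H2A members. Probe set 214290_PM_s_at averaged 10.4 in NCS and 9.71 in DMSO_pooled (0.69 ± 0.13, adjusted p = 0.011 in limma), 8.79 in ENU and 8.99 in tBHQ against the same control (-0.92 and -0.72), and 9.10 in MMS against 9.92 in MMS_CTL (-0.82 ± 0.12). Probe set 218280_PM_x_at had 0.84 in NCS, -0.83 in ENU, -0.59 in tBHQ and -0.83 in MMS. The probe set shared by 7 H2B genes, 208546_PM_x_at, averaged 6.41 in NCS and 5.73 in DMSO_pooled (0.68), 4.99 in ENU against that control (-0.74), and 5.49 in MMS against 6.31 in MMS_CTL (-0.82). The probe set of H4C11 and H4C12 averaged 4.51 in QUE and 5.16 in QUE_DMSO (-0.65 ± 0.12, adjusted p = 0.0031 in limma). That of H4C15 and H4C14, 207046_PM_at, was called higher in NCS, with 4.10 against a DMSO_pooled mean under 4, 3.50. It was called lower in tBHQ and BRO, where both means were under 4, so no fold is given. In MMS it averaged 4.23 against 4.81 in MMS_CTL (-0.58, adjusted p = 0.0026 in limma), which is under 1.5-fold. The 4 probe sets shared by H3-3A, which encodes H3.3, and the pseudogene H3P6 had no call in the 11 compounds.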
